A study of Sus scrofa with 95 samples.

Results

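Hypoxia response and glycolysis genes were followed in 5 organs of infant pigs after cardiopulmonary bypass. The set was a list of 40 symbols, namely the enzymes and regulators of glycolysis, the hypoxia-inducible factor (HIF) subunits with the hydroxylases that control them, and well-known HIF target genes. A row was found for 39 of the 40 in a table of 35670 genes. The glucose carrier SLC2A3 was not analysed here. Pigs weighing 5 to 10 kg formed 3 arms: 8 anesthesia controls, 7 animals with cardiopulmonary bypass and deep hypothermic circulatory arrest (CPB/DHCA, called CPB below), and 4 animals with CPB/DHCA plus 75 mg of linrodostat, an inhibitor of the tryptophan-degrading enzyme IDO1. In bypass a machine takes over the work of heart and lungs, and here the cooled circulation was stopped for 75 min. The controls are labelled as anesthesia controls only, so bypass, cooling, arrest and the time after them cannot be told apart. Each animal gave a piece of left ventricle, terminal ileum, kidney cortex, liver and right lower lung lobe, which makes 95 libraries. The arms held 4 female and 4 male, 3 female and 4 male, and 2 female and 2 male pigs. Kidney and ileum were taken just before the animal was killed, and heart, liver and lung just after.

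HIF is a transcription factor made of an oxygen-labile alpha subunit (HIF1A, or EPAS1, also called HIF2A) and a stable partner. In oxygen, prolyl hydroxylases such as EGLN1 and EGLN3 mark the alpha subunit for destruction. In low oxygen it persists and switches on genes for glucose uptake, glycolysis, lactate production, blood supply and red cell formation. This control acts on the protein, so the messenger RNA of HIF1A itself does not report HIF activity. Glycolysis splits glucose to pyruvate. The upper steps, with hexokinase, phosphofructokinase and aldolase, consume ATP, and the lower steps, from GAPDH to pyruvate kinase, return it. Many HIF targets also answer to other signals, such as insulin, adrenaline and inflammation.

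Total counts per library ran from 19956900 to 53627700, with the lowest in heart (up to 27219500). Levels below are TMM-normalised CPM, counts scaled to the size of the library, set within each organ unless stated. All heart libraries carry batch label 2 and all others batch label 1, so organ and batch cannot be told apart when heart is set against the rest. The summed level of each organ's own markers was at least 60038 CPM in heart (7 muscle genes), 7164 in kidney, 68040 in liver and 6957 in lung, against at most 2232 in any other organ. Within heart, CPB animals 19 and 11 stood apart at 60038 and 61398 CPM, against 89250 to 111924 in controls. In ileum the sum was 1024 in CPB animal 19 and at least 2722 elsewhere, and the same list, which liver partly shares, reached 4543 there. The kidney transcript UMOD stood at 48.9 and 44.5 CPM in the lungs of CPB animals 19 and 25 and at 8.39, 26.3 and 1.21 in those of linrodostat animals 18, 20 and 24, against at most 0.0961 in control lungs. In bulk tissue, fewer cells of a type and less RNA per cell cannot be told apart.

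In control animals the ratio of the highest to the lowest organ median ran from 1.35 for KDM3A to 84.1 for PFKM, on 1 scale over all 95 libraries. PFKM, the muscle subunit of phosphofructokinase, had a median of 838 CPM (497 to 1216) in heart, 41.1 (35.0 to 44.4) in kidney and 9.97 (6.69 to 11.2) in lung. The ranges of heart and kidney, and of kidney and ileum, did not overlap. HK1, the housekeeping hexokinase, was likewise highest in heart at 584 CPM (402 to 852) and lowest in liver at 35.9 (32.3 to 48.0). ALDOA, GAPDH, TPI1 and PKM, 4 further glycolytic enzymes, also had their highest levels in heart, with no overlap with the next organ. ENO1, enolase, ran the other way, with 167 CPM (111 to 202) in heart against 416 (350.2 to 624) in lung, the next organ up. LDHA, the lactate dehydrogenase subunit of pyruvate reduction, was highest in ileum, at 296 CPM (249 to 393) against 130.1 (94.1 to 169) in lung.

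HIF1A ordered ileum, lung, heart, kidney and liver, with medians of 82.9, 73.6, 68.8, 65.3 and 52.7 CPM, and every neighbour in that order overlapped. EPAS1, the alpha subunit best known from endothelium, stood at 1612 CPM (1141 to 2854) in lung, above liver at 368 (264 to 436) without overlap. Heart (320.5) and kidney (284) followed, and ileum was lowest at 120.2 (70.7 to 182). BNIP3, a receptor that tags mitochondria for removal, was highest in liver at 244 CPM (176 to 286), overlapping kidney at 138 (75.9 to 205). P4HA1, a collagen prolyl hydroxylase, was also highest in liver, at 138 CPM (90.2 to 326), with no overlap with kidney at 52.2 (30.7 to 57.5). NDRG1, a stress-induced cytoplasmic protein, was highest in kidney at 408 CPM (290.3 to 528), where it overlapped ileum.

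**Figure D1:**
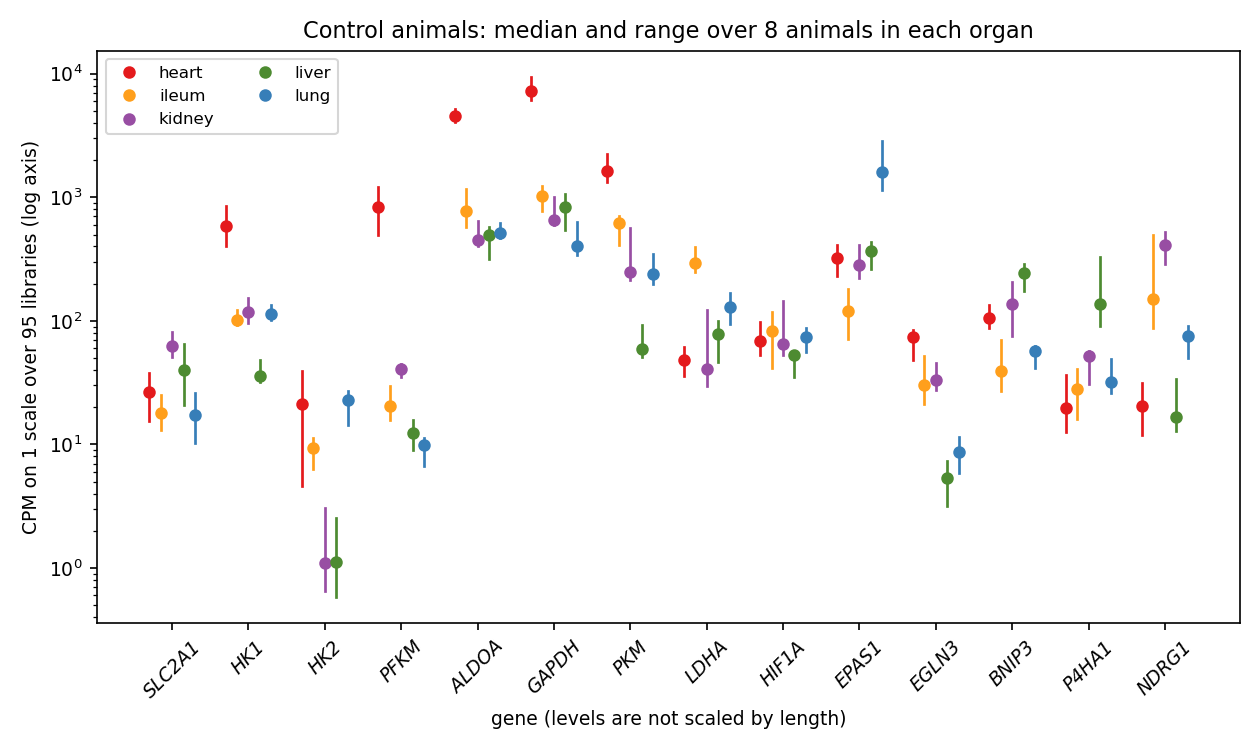
Levels of 14 members in the 8 control animals, in CPM on 1 scale over all libraries (log axis). Points are medians and lines run from the lowest to the highest animal. Heart stands above every other organ for HK1, PFKM, ALDOA, GAPDH and PKM, lung for EPAS1 and liver for P4HA1, whereas the 5 organs overlap for HIF1A.

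EPO, the hormone that drives red cell formation, was at or near 0 in most organs. All 19 heart libraries and all 8 control lungs had 0 counts, which allows at most 0.150 CPM in a heart and 0.0921 in a control lung (3 counts of the library's total, covering counting error only). In kidney the 8 controls ran from 0.0426 to 1.16 CPM (median 0.334), the 7 CPB animals from 0.0302 to 2.42 (median 0.146) and the 4 linrodostat animals from 0.196 to 1.37. In liver the ranges were 0 to 0.943, 0 to 1.74 and 0.0763 to 0.402 CPM. The arms overlapped in both organs, and no difference passed the test (CPB against control: log2 fold change 0.69 ± 0.82 (SE), adjusted p = 0.582 in kidney, and 0.84 ± 0.74, adjusted p = 0.415 in liver). These levels rest on at most 63 counts in a kidney and 79 in a liver library.

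CPB against control was then tested in each organ over all genes. A gene is called when its Benjamini-Hochberg adjusted p is under 0.05. The members called numbered 13 of 39 in liver, 8 of 38 in heart, 7 of 39 in kidney, 5 of 38 in lung and 0 of 38 in ileum. Over all genes tested, 26.9% were called in liver, 11.9% in heart, 21.1% in kidney, 4.71% in lung and 0% in ileum. The members' shares were thus 33.3%, 21.1%, 17.9%, 13.2% and 0%, above the background in heart and lung and nearer to it in liver and kidney. The heart count fell to 4 of 38 (10.5%, beside 9.19% of all genes) without control animal 7, and to 5 without the hearts of CPB animals 19 and 11 (13.2% beside 7.04%). The lung count fell to 1 of 38 without CPB animals 19 and 25 (2.63% beside 0.916%). In ileum 3 of 38 members had an unadjusted p under 0.05 (edgeR), beside 932 of 17869 genes tested. DESeq2 and limma-voom also called no member there.

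The directions were mixed in every organ with calls. In heart 6 members were higher and 2 lower, against 6.39% and 5.53% of all genes. In kidney 3 were higher and 4 lower (11.3% and 9.86% of all genes). Liver had 6 higher and 7 lower (15.6% and 11.3%), and lung 2 higher and 3 lower (2.08% and 2.62%). In ileum 0% of genes were called either way. For heart, ileum, kidney, liver and lung in this order, the members' median log2 fold change was -0.02, -0.03, 0.09, -0.07 and -0.08, beside -0.02, -0.02, -0.03, -0.03 and 0.01 over all genes tested.

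Over the 5 organs, 21 members were called at least once and 18 never. Of the 21, 9 were called in 1 organ and 12 in 2 organs, and 0 in more than 2. In both organs 5 of the 12 were higher (PGK1, PGAM1, ENO1, LDHA and PFKFB3) and 5 lower (HK1, PFKFB4, PFKP, ALDOC and ERO1A). P4HA1 and CA9 were called in opposite directions in their organ pairs. Of all genes tested, 26.9% were called in liver, 21.1% in kidney, 11.9% in heart, 4.71% in lung and 0% in ileum. Calls in 1 or in 2 organs were counted for the members only, so these counts have no background beside them.

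**Figure D2:**
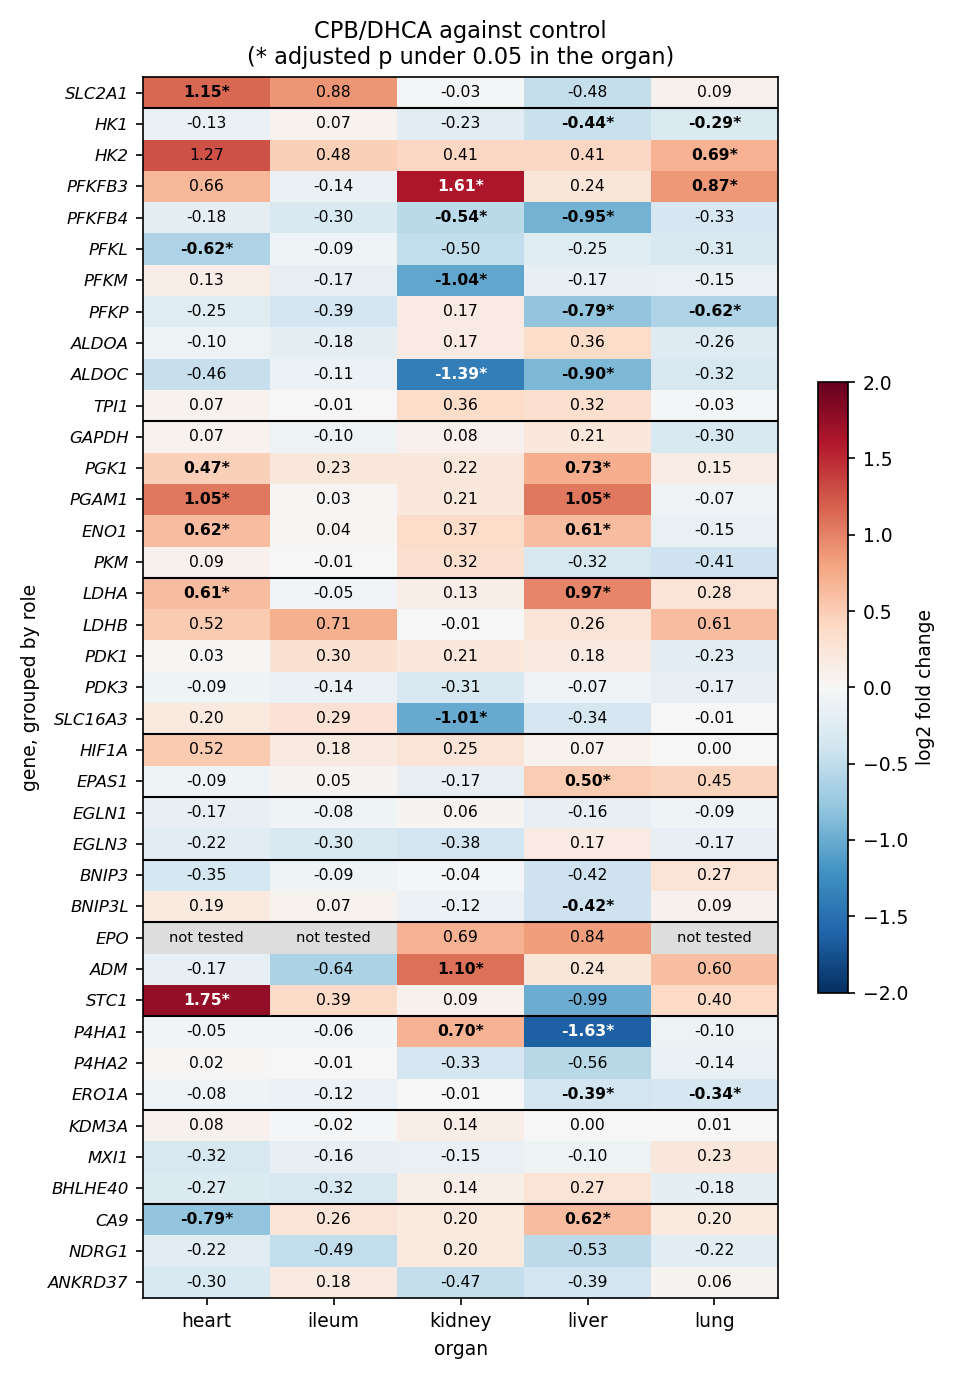
Log2 fold change of CPB against control for the 39 members (rows, grouped by role) in 5 organs (columns). Asterisks mark adjusted p under 0.05. The block from PGK1 to ENO1 and LDHA is red in heart and liver, the phosphofructokinase rows are mostly blue, and P4HA1 is red in kidney and blue in liver.

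Glucose entry came first in the heart. SLC2A1, the carrier GLUT1 (chr6:168535398-168561170 in RefSeq's table for Sscrofa11.1), ran from 10.9 to 25.5 CPM (median 18.9) in control hearts and from 16.4 to 79.5 (median 37.0) in CPB hearts. All but 1 of the CPB hearts lay above every control, and CPB animal 2 was far above the rest. It rose by a log2 fold change of 1.15 ± 0.25 (adjusted p = 0.0055), and without animal 2 by 0.89, the lowest value over single omissions. In ileum 1 CPB library, animal 19, reached 160 CPM while the other CPB animals were at most 36.2 and controls 19.0 to 33.3. That is the ileum with the lowest epithelial markers, and the difference of 0.88 ± 0.38 did not pass (adjusted p = 0.942).

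At the hexokinase step, HK1 fell in liver and lung, and the inducible HK2 rose in lung. In liver HK1 ran from 18.2 to 25.9 CPM in controls and from 12.5 to 18.1 in CPB animals, with no overlap (-0.44 ± 0.12, adjusted p = 0.0135). In lung it ran from 147 to 193 CPM (median 163) in controls and from 122 to 151 (median 135) in CPB animals, and only the highest CPB lung reached into the control range (-0.29 ± 0.08, adjusted p = 0.0438). HK2 in lung had 20.8 to 38.8 CPM (median 33.0) in controls and 31 to 81.5 (median 42.7) in CPB animals, of which 4 of 7 exceeded every control (0.69 ± 0.20, adjusted p = 0.0463). The HK1 call in lung was lost without any 1 of control animals 1, 7, 10, 13 and 26 and CPB animals 2, 11, 19, 21 and 25 (adjusted p up to 0.1). The HK2 call was lost without any 1 of control animals 1, 4, 7, 10, 15 and 26 and CPB animals 2, 19, 21 and 25 (up to 0.11), and both were lost without CPB animals 19 and 25 together (0.159 and 0.233). In heart HK2 had 13.1 to 77.8 CPM in CPB animals against 3.28 to 26.9 in controls, a difference of 1.27 ± 0.45 that missed the threshold (adjusted p = 0.0754).

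Phosphofructokinase commits glucose to glycolysis, and its 3 subunit genes were called in 4 of 15 gene and organ pairs, each time lower: PFKM in kidney, PFKL in heart and PFKP in liver and lung. Of all genes, 9.86%, 5.53%, 11.3%, 2.62% and 0% were called lower in kidney, heart, liver, lung and ileum. This count by enzyme family was set up after the values were seen. PFKM in kidney (chr5:78475473-78525052) had the smallest p of any member there. Controls ran from 44.6 to 58.2 CPM (median 52.9) and CPB kidneys from 13.8 to 34.3 (median 27.2), without overlap (-1.04 ± 0.16, adjusted p = 0.000313). The 4 linrodostat kidneys, at 24.8, 14.8, 26.2 and 28 CPM, were also below every control. PFKL, the liver-type subunit, fell in heart, from 74.7 to 139 CPM (median 96.7) in controls to 52.0 to 81.7 (median 62.1), where 4 of 7 CPB hearts lay below every control (-0.62 ± 0.14, adjusted p = 0.0072).

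PFKP, the platelet-type subunit, fell in liver and lung. In liver controls had 9.89 to 17.3 CPM (median 12.9) and CPB animals 4.12 to 11.0 (median 7.5), and 6 of 7 CPB livers were below every control (-0.79 ± 0.17, adjusted p = 0.00288). In lung controls had 121 to 190.4 CPM (median 155) and CPB animals 73.1 to 133 (median 108), again with 6 of 7 below every control (-0.62 ± 0.14, adjusted p = 0.0166). The lung call was lost without CPB animals 19 and 25 together, whose libraries held UMOD (-0.55, adjusted p = 0.087).

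The rate of the step is set by fructose 2,6-bisphosphate, which the PFKFB enzymes make and remove. PFKFB3, the isoform with strong synthetic activity (chr10:64776315-64859118), rose in kidney and lung. Control kidneys ran from 25.2 to 106 CPM (median 35.3), with control animal 14 at 106 and all others at most 40.7. CPB kidneys ran from 82.4 to 187 CPM (median 101), and 3 of 7 were above every control. The log2 fold change was 1.61 ± 0.29 (adjusted p = 0.00109). In lung controls were tight at 29.1 to 39.3 CPM (median 34.1), and CPB lungs lay above all of them at 46.9 to 106 (median 56.6), with animal 2 the highest (0.87 ± 0.15, adjusted p = 0.00345). It was the only member still called in lung without CPB animals 19 and 25, where the count fell from 5 to 1.

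PFKFB4, the related isoform, fell in kidney and liver and was below 0 in all 5 organs. Control kidneys had 7.67 to 13.0 CPM (median 10.3) and CPB kidneys 4.59 to 10.5 (median 6.77), with overlap in 3 of 7 (-0.54 ± 0.17, adjusted p = 0.0249). Control livers had 1.71 to 3.51 CPM (median 2.95) and CPB livers 0.847 to 1.83 (median 1.49), with 5 of 7 below every control (-0.95 ± 0.20, adjusted p = 0.00255). Without the kidneys of control animals 1 and 26, which held the fat transcript ADIPOQ, the kidney call was lost (-0.52, adjusted p = 0.0665).

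ALDOC, the brain-type aldolase, fell in the same 2 organs from low levels. In kidney controls ran from 1.43 to 10.3 CPM (median 2.57), the highest being animal 15, and CPB animals from 0.950 to 2.21 (median 1.45), with overlap in 4 of 7 (-1.39 ± 0.37, adjusted p = 0.0133). In liver all values were under 2 CPM (-0.90 ± 0.30, adjusted p = 0.0327), and the call was lost without any 1 of control animals 10, 15 and 26 and CPB animals 2, 11, 21 and 25 (adjusted p up to 0.0795). ALDOA and TPI1 passed in no organ. Their log2 fold changes lay between -0.26 and 0.36 and between -0.03 and 0.36.

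**Figure D3:**
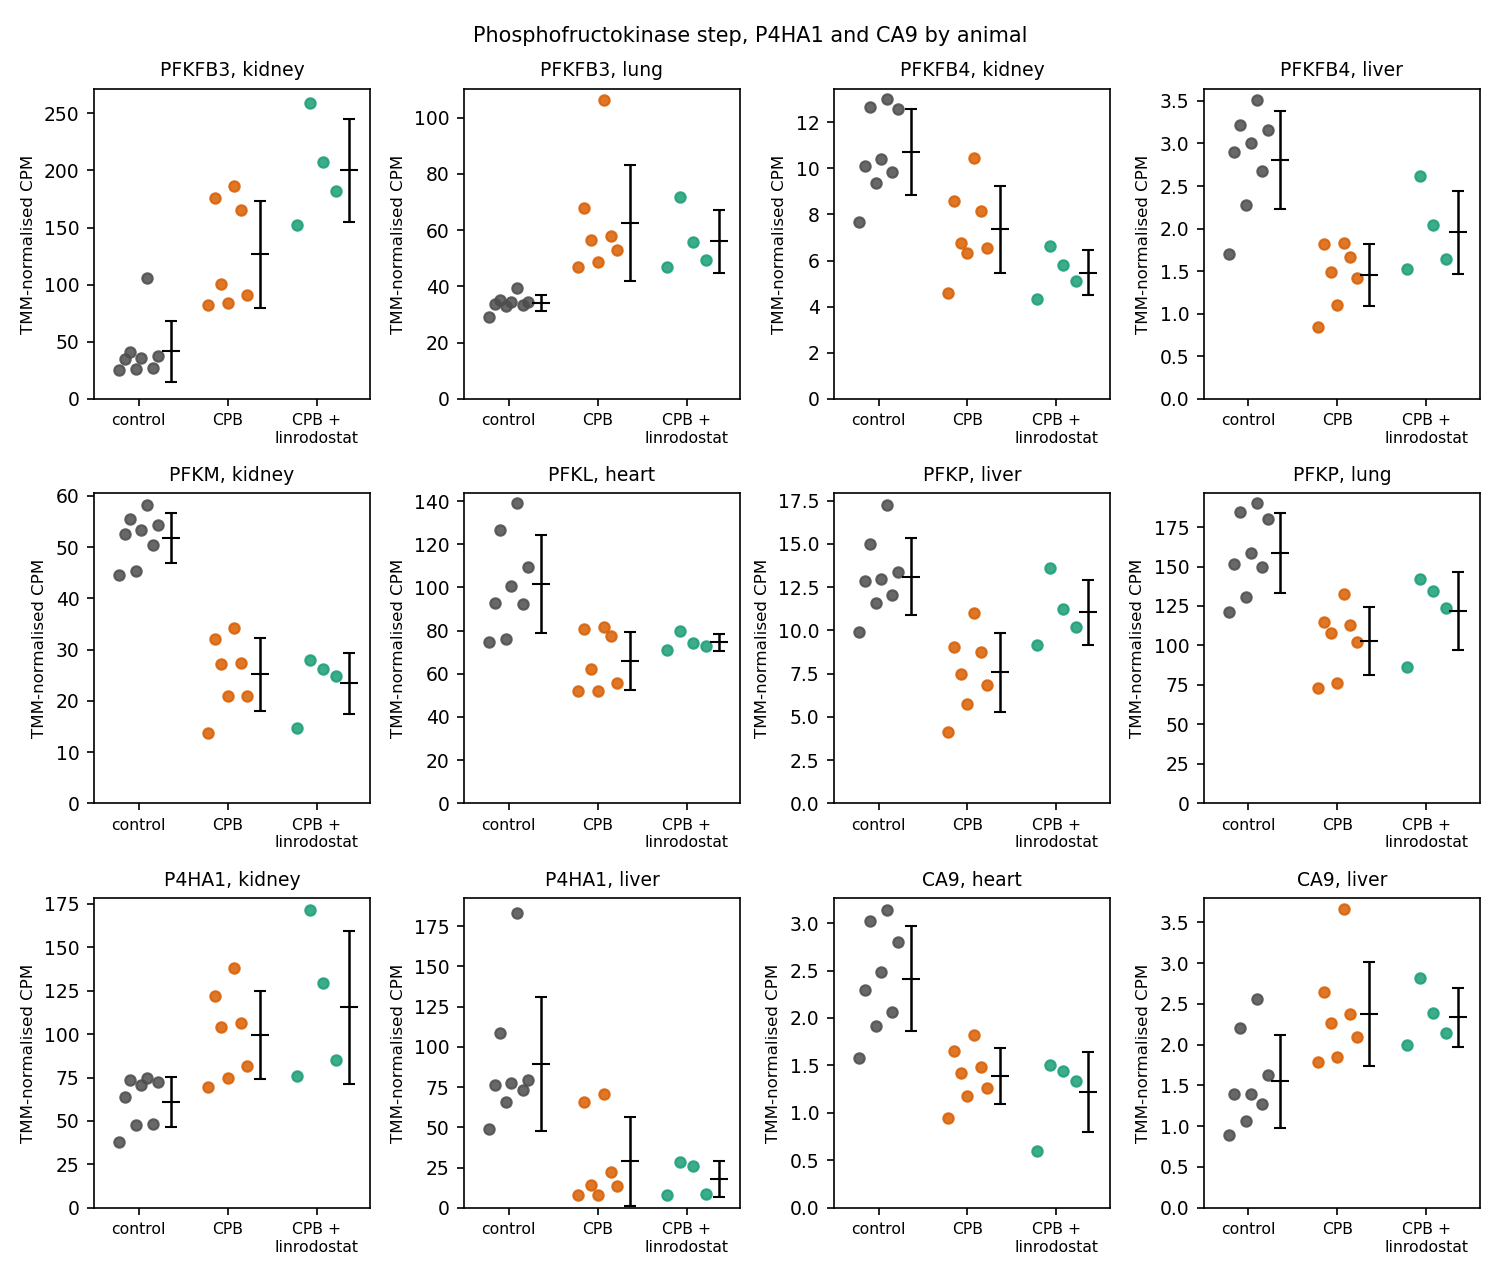
Levels by animal of the phosphofructokinase genes, P4HA1 and CA9 in the organs where they were called, in TMM-normalised CPM. Each point is an animal, and bars give the mean ± SD beside each arm. PFKM in kidney and PFKFB3 in lung separate control from CPB animals without overlap, and P4HA1 moves up in kidney and down in liver.

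Of the 5 lower enzymes, PGK1, PGAM1 and ENO1 rose in heart and liver, and GAPDH and PKM were called in no organ. The first 3 catalyse consecutive steps, and LDHA reduces the pyruvate at the end to lactate. With LDHA, 4 genes were called higher in both organs, which makes 8 of 20 gene and organ pairs, with 0 lower, while 6.39% of all genes were called higher in heart and 15.6% in liver. This group of 4 was put together after its values were seen. PGAM1, phosphoglycerate mutase (chr14:108822782-108832818), had 108 to 205 CPM (median 165) in control hearts and 222 to 531 (median 304) in CPB hearts, with no overlap (1.05 ± 0.21, adjusted p = 0.00261). In liver it had 95.6 to 151 CPM (median 106) in controls and 135 to 451 (median 238) in CPB animals, of which 6 of 7 were above every control (1.05 ± 0.21, adjusted p = 0.00158). CPB animal 2 stood apart at 451 CPM, with the next at 239.

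ENO1 rose about as much in both organs. Control hearts had 79.2 to 137 CPM (median 116) and CPB hearts 130 to 213 (median 168), with 6 of 7 above every control (0.62 ± 0.14, adjusted p = 0.00561). Control livers had 325 to 572 CPM (median 462) and CPB livers 518 to 957 (median 652), with 5 of 7 above (0.61 ± 0.15, adjusted p = 0.00625).

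PGK1, the first ATP-forming enzyme of the pathway, had 88.7 to 136 CPM (median 109.7) in control livers, where animal 13 was apart at 136, and 134 to 215 (median 183) in CPB livers, with 6 of 7 above every control (0.73 ± 0.12, adjusted p = 0.000374, the smallest p of any member in liver). In heart the controls had 108 to 195 CPM (median 135) and CPB animals 142 to 269.5 (median 175), with only 2 of 7 above every control (0.47 ± 0.15, adjusted p = 0.0365). The heart call was lost without any 1 of control animals 1, 7, 15 and 26 and CPB animals 19 and 25, with adjusted p up to 0.0912.

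LDHA had 25.5 to 56.5 CPM (median 42.4) in control livers and 60.1 to 94.0 (median 82.8) in CPB livers, without overlap (0.97 ± 0.16, adjusted p = 0.000424). In heart it had 25.5 to 41.3 CPM (median 33.2) in controls and 35.2 to 87.4 (median 45.9) in CPB animals, with 4 of 7 above every control and animal 19 apart at 87.4 (0.61 ± 0.19, adjusted p = 0.0349). That call was lost without any 1 of control animals 1, 7, 10 and 14 and CPB animals 2, 11 and 19. Without animal 19 the log2 fold change was 0.42 (adjusted p = 0.098). Animal 19, the heart with the lowest muscle markers, was the highest CPB heart for LDHA, PGAM1 (531 CPM) and HIF1A (112 CPM), and the lowest for EPAS1 (85.9 CPM). Without the hearts of animals 19 and 11, PGAM1 was at 0.90 (adjusted p = 0.0139) and still called, while LDHA (0.34, adjusted p = 0.206), PGK1 (0.45, 0.0892) and CA9 (-0.72, 0.12) were not. In lung LDHA differed by 0.28 ± 0.13 (adjusted p = 0.21).

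**Figure D4:**
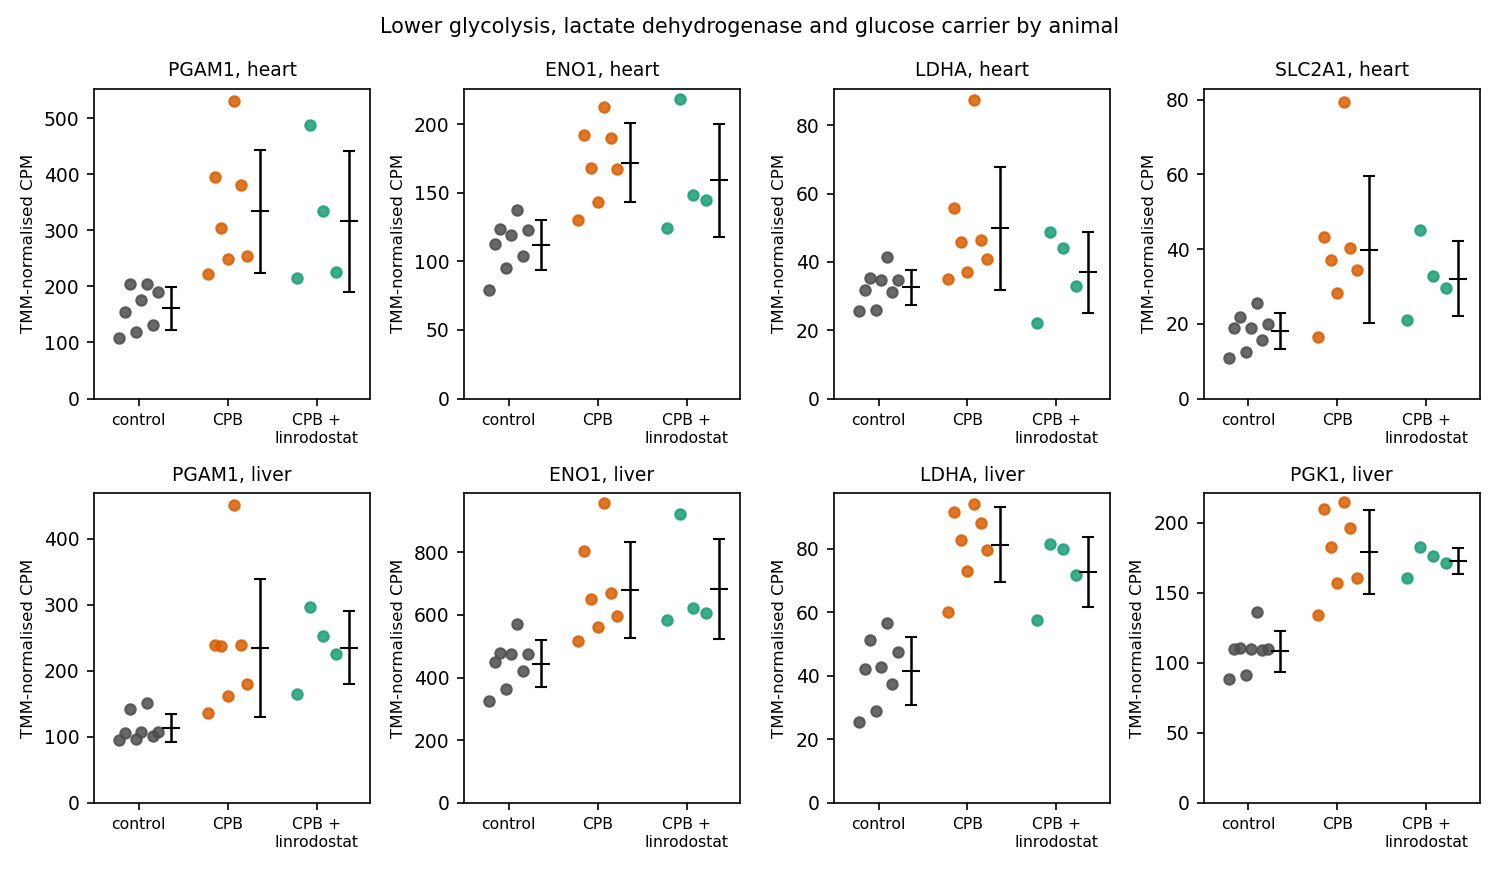
Levels by animal of PGAM1, ENO1, LDHA and SLC2A1 in heart (top) and of PGAM1, ENO1, LDHA and PGK1 in liver (bottom), in TMM-normalised CPM. Each point is an animal, and bars give the mean ± SD beside each arm. PGAM1 in heart and LDHA in liver separate control from CPB animals, and all 4 linrodostat animals lie above the controls for both.

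Within the liver the same animals recurred at the ends. Among the 6 members that rose there (PGK1, PGAM1, ENO1, LDHA, EPAS1 and CA9), CPB animal 6 was the lowest CPB animal for 5, and CPB animal 2 the highest for 4. These 6 were chosen by their calls in the same livers, and the other members were not counted. The EPAS1 and CA9 calls were lost without CPB animal 2, so the choice can itself favour a high animal 2. GAPDH and PKM had log2 fold changes of -0.30 to 0.21 and of -0.41 to 0.32, the lowest for both in lung (adjusted p = 0.242 and 0.0846).

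Of the genes that decide the fate of pyruvate, PDK1 and PDK3, kinases that shut the entry of pyruvate into the mitochondrial cycle, were called in no organ, with a smallest adjusted p of 0.174 over 10 pairs. SLC16A3, the lactate exporter MCT4, fell in kidney by 1.01 on the log2 scale (SE 0.33, adjusted p = 0.0344). Control kidneys ran from 10.0 to 55.5 CPM (median 23) and CPB kidneys from 7.31 to 23.2 (median 12.1), with 4 of 7 inside the control range. That call was lost without any 1 of control animals 10 and 13 and CPB animals 2, 9, 11, 19 and 21 (adjusted p up to 0.0669), and without the kidneys of control animals 1 and 26 together (-1.08, adjusted p = 0.0508).

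HIF1A messenger was called in no organ. In heart it had 38.2 to 67.3 CPM (median 47.0) in controls and 40.2 to 112 (median 63.3) in CPB animals, where animal 19 was the highest (0.52 ± 0.17, adjusted p = 0.0534). Kidney had 68.3 to 189.5 CPM (median 83.2) in controls and 83.6 to 153 (median 117) in CPB animals (0.25 ± 0.19, adjusted p = 0.373). In ileum the medians were 119 and 132 CPM, in liver 29.1 and 27.6, and in lung 106 and 101, with overlapping ranges and adjusted p of 0.702 or more.

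EPAS1 rose in liver, from 149 to 242 CPM (median 201) in controls to 203 to 388 (median 259) in CPB animals, with 5 of 7 above every control (0.50 ± 0.16, adjusted p = 0.0261). Without CPB animal 2, the highest, the call was lost (0.40, adjusted p = 0.0735). In lung the change was of like size but uneven, with 1641 to 4132 CPM (median 2334) in controls and 1585 to 6209 (median 3019) in CPB animals (0.45 ± 0.25, adjusted p = 0.309). Heart (medians 226 and 224), ileum (166 and 162) and kidney (363 and 262) overlapped, with adjusted p of 0.581 or more. The hydroxylases EGLN1 and EGLN3, both HIF targets themselves, were called in no organ. The smallest adjusted p was 0.346 for EGLN1 in heart and 0.0741 for EGLN3 in kidney, where it was -0.38 ± 0.15.

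Among secreted factors, ADM, the vessel-dilating peptide adrenomedullin, rose in kidney. Controls had 13.0 to 55.3 CPM (median 34.1) and CPB animals 41.7 to 99.5 (median 71.8), with 6 of 7 above every control (1.10 ± 0.23, adjusted p = 0.00322). STC1, stanniocalcin, rose in heart from 0.782 to 4.76 CPM (median 2.13) to 1.25 to 22.8 (median 3.99), a log2 fold change of 1.75 ± 0.57 with an adjusted p of 0.0499. Only 3 of 7 CPB hearts exceeded every control, and animal 2 was the highest. The call was lost without any 1 of control animals 1, 4, 7, 10, 13, 14 and 15 and CPB animals 2, 9, 21 and 25 (1.18, adjusted p = 0.158 without animal 2). In liver STC1 was 0.575 to 1.92 CPM in controls and 0.236 to 1.21 in CPB animals (-0.99 ± 0.38, adjusted p = 0.059).

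P4HA1 (chr14:75827207-75919121), the catalytic subunit that hydroxylates collagen prolines, rose in kidney and fell in liver. Control kidneys had 38.0 to 74.5 CPM (median 67.2) and CPB kidneys 69.6 to 138 (median 104), with 5 of 7 above every control (0.70 ± 0.20, adjusted p = 0.0161). Control livers had 48.7 to 183 CPM (median 76.9). The 7 CPB livers split, with animals 9 and 21 at 65.6 and 70.5 CPM, inside the control range, and animals 2, 6, 11, 19 and 25 at 7.75, 22.2, 14.2, 13.3 and 7.65, all below it. The linrodostat livers were at 26.2, 28.5, 8.63 and 7.97 CPM, also all below it. The log2 fold change in liver was -1.63 ± 0.50 (adjusted p = 0.0226), the lowest of any member in this comparison in the 5 organs. The call was kept in all 15 single omissions, between -2.03 and -1.40, but not with the low-count filter removed (adjusted p = 0.055).

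P4HA2, the sister subunit, passed in no organ (-0.33 ± 0.15 in kidney, adjusted p = 0.119). ERO1A, the oxidase that forms disulfide bonds in secreted proteins, fell in liver and lung. In liver it had 26.7 to 39.7 CPM (median 32.0) in controls and 19.3 to 29.8 (median 26.1) in CPB animals (-0.39 ± 0.12, adjusted p = 0.0189). In lung it had 82.9 to 97.1 CPM (median 94.5) in controls and 59.7 to 86.1 (median 76.5) in CPB animals, of which 6 of 7 were below every control (-0.34 ± 0.08, adjusted p = 0.0161). Without CPB animals 19 and 25 the lung call was lost (-0.27, adjusted p = 0.0795).

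CA9, carbonic anhydrase 9, a widely used hypoxia marker, was low everywhere and moved in opposite directions. It fell in heart, from 1.58 to 3.14 CPM (median 2.39) to 0.941 to 1.82 (median 1.42), with 5 of 7 below every control (-0.79 ± 0.25, adjusted p = 0.0404). It rose in liver, from 0.896 to 2.56 CPM (median 1.39) to 1.79 to 3.66 (median 2.27), with only 2 of 7 above every control (0.62 ± 0.22, adjusted p = 0.0458). The heart call was lost without any 1 of control animals 7, 10, 14, 15 and 26 and CPB animals 2, 11, 19 and 25 (adjusted p up to 0.0826). The liver call was lost without any 1 of control animals 1, 7, 10, 14, 15 and 26 and CPB animals 2, 6, 9, 19 and 21 (up to 0.126).

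BNIP3L, the sister of BNIP3 in mitochondrial removal, fell in liver from 20.9 to 32.1 CPM (median 23.5) to 14.9 to 25.4 (median 16.6), with 5 of 7 below every control (-0.42 ± 0.15, adjusted p = 0.0466). This call was lost without any 1 of control animals 4, 7, 10, 13, 14 and 15 and CPB animals 2, 11, 19, 21 and 25 (adjusted p up to 0.0971). BNIP3 had the same estimate in liver, -0.42 ± 0.17, without passing (adjusted p = 0.0754). KDM3A, MXI1 and BHLHE40, a histone demethylase and transcriptional regulators that HIF induces, passed in no organ, with a smallest adjusted p of 0.371 over 15 pairs. NDRG1 and ANKRD37 did not pass either (smallest adjusted p 0.167 and 0.333).

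The ileum had no call. PFKP and HK2 had the smallest p there. PFKP was 211 to 290 CPM (median 243) in controls and 129 to 240.4 (median 182) in CPB animals, of which 5 of 7 were below every control (-0.39 ± 0.16, adjusted p = 0.914). HK2 was 8.28 to 15.3 CPM (median 13.1) in controls and 12.0 to 26.1 (median 14.4) in CPB animals (0.48 ± 0.20, adjusted p = 0.928). The pieces differed in make-up, with 9 smooth muscle and fibroblast markers summing to 1421 to 22899 CPM in controls and 2804 to 16588 in CPB animals, and MYH11 as a covariate still gave 0 calls.

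Markers of other cells moved in the organs with calls. Of all genes tested, 15.6% were called higher and 11.3% lower in liver, and 11.3% and 9.86% in kidney. For lung these shares were 2.08% and 2.62%, and for heart 6.39% and 5.53%. In liver 3 of 6 tested neutrophil markers were higher and 5 of 9 macrophage and 6 of 8 lymphocyte markers lower. Their sums ran from 4.15 to 11.5 CPM in controls against 5.58 to 19.4 in CPB animals for neutrophils, 806 to 1702 against 549 to 1074 for macrophages, and 30.3 to 100.2 against 10.6 to 44.2 for lymphocytes. In lung 2 of 6 neutrophil markers were higher (sums of 123 to 259.5 against 187 to 398 CPM) and 6 of 9 macrophage markers lower (7749 to 13559 against 3820 to 8111). In kidney 5 of 9 macrophage, 4 of 9 smooth muscle and fibroblast and 2 of 4 tested fat cell markers were lower, and ADIPOQ, up to 117 CPM in controls, was at 0 in every CPB kidney. Macrophage sums ran from 288 to 2304 CPM in control kidneys, the highest in animal 15, the one with the highest ALDOC, against 243 to 542. In heart 2 of 9 smooth muscle and fibroblast markers were higher (sums of 4599 to 6395 CPM, median 5429, against 4912 to 9767, median 8061). Only 4 of these 9 had a log2 fold change above 0, and their median was -0.09. Of 7 heart muscle markers ACTC1 was higher (1.26 ± 0.26) and MYBPC3 lower (-0.54 ± 0.15). Of the heart's macrophage markers 1 of 9 was called higher, but only 3 of 9 had a log2 fold change above 0 (median -0.40). Macrophage sums in heart ran from 254 to 870.3 CPM (median 417) in controls against 265 to 835 (median 365). Of the heart's neutrophil markers 0 of 3 tested were called. Of 7 endothelial markers 1 was higher and 2 lower in kidney and likewise in lung, and 1 was lower in liver. Of the kidney's own 7 tubule and glomerulus markers 2 were lower. In lung 1 of 8 lymphocyte markers was lower. Calls in the remaining lists are not all given here. The part of these cells in the members' changes was not tested.

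Linrodostat against CPB gave 0 called members in all 5 organs. Over all genes the share was 0.772% in liver and 0% in heart, ileum, kidney and lung. Unadjusted p (edgeR) was under 0.05 for 5 members in liver, 2 in ileum and 1 each in heart, kidney and lung. Over all genes it was under 0.05 for 1297 of 15406 in liver and 1641 of 17869 in ileum. In heart, kidney and lung it was so for 901 of 14890, 822 of 17653 and 462 of 17849. DESeq2 and limma-voom also called none of the members in any organ. The standard errors of the estimates named below ran from 0.10 to 0.34.

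The 2 smallest p in each organ show the scale. In heart EGLN3 had 41.5, 30.0, 31.2 and 27.5 CPM with linrodostat against 30.5 to 53.9 (median 43.3) with CPB alone, with overlap in 2 of 4 (-0.40 ± 0.16, adjusted p = 0.793). NDRG1 had 28.7, 22.4, 13.8 and 8.85 CPM against 8.77 to 17.3 (median 11.5), with 2 of 4 above every CPB heart (0.54 ± 0.26, adjusted p = 0.83). In ileum HK1 had 125, 91.2, 79.1 and 66.9 CPM against 85.7 to 317 (median 122), where the 317 is CPB animal 19 and the next 154 (-0.69 ± 0.28, adjusted p = 0.47). HK2 in ileum had 9.27, 15.3, 14.1 and 7.70 CPM against 12.0 to 26.1, overlapping in 2 of 4 (-0.57 ± 0.25, adjusted p = 0.509).

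In kidney PFKFB3 had 182, 259, 207 and 152 CPM with linrodostat against 82.4 to 187 with CPB alone, so 2 of 4 lay above every CPB kidney (0.66 ± 0.34, adjusted p = 0.998). PFKFB4 had 6.63, 5.81, 4.34 and 5.10 CPM against 4.59 to 10.5, with overlap in 3 of 4 (-0.43 ± 0.20, adjusted p = 0.998). In liver PFKP had 11.2, 13.6, 9.12 and 10.2 CPM against 4.12 to 11.0, with 2 of 4 above every CPB liver (0.54 ± 0.20, adjusted p = 0.403). ERO1A had 22.4, 19.4, 17.5 and 17.6 CPM against 19.3 to 29.8, with 2 of 4 below (-0.33 ± 0.14, adjusted p = 0.521).

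In lung BNIP3L had 102, 93.7, 102 and 103 CPM against 98.5 to 136 (median 120.4), with only animal 18 below every CPB lung (-0.21 ± 0.10, adjusted p = 1). PKM had 285, 491, 293 and 308 CPM against 243 to 334 (median 260.2), with animal 18 again apart (0.34 ± 0.16, adjusted p = 1).

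Linrodostat animals were also set against controls, a comparison that shares its controls with the one above. Called were 8 members in kidney, 10 in liver, 2 in heart, 2 in lung and 0 in ileum, beside 20.0%, 21.8%, 2.04%, 2.35% and 0.213% of all genes. The heart count fell to 0 without any 1 of control animals 4, 7, 13 and 14 and linrodostat animals 20 and 24, and the lung count to 0 without any 1 of control animals 1 and 26 and linrodostat animals 12, 20 and 24. The kidney count fell to 5 without linrodostat animal 18 or 20. Side by side, with CPB against control first, PFKFB3 in kidney was 1.61 and 2.27, P4HA1 in liver -1.63 and -2.32, PGAM1 in heart 1.05 and 0.97, PFKM in kidney -1.04 and -1.14, and LDHA in liver 0.97 and 0.81. HK2 in lung was 0.69 and 0.87. Other members were called with CPB and not with linrodostat, which shows no difference between the arms either. These were 7 in heart (SLC2A1, PFKL, PGK1, ENO1, LDHA, STC1 and CA9), 6 in liver (HK1, PFKFB4, PFKP, ALDOC, EPAS1 and CA9), 3 in lung (HK1, PFKP and ERO1A) and 1 in kidney (SLC16A3). For LDHA in heart the values were 0.61 and 0.18 (adjusted p = 0.767 for the latter), for SLC2A1 in heart 1.15 and 0.83 (0.147), for PFKP in liver -0.79 and -0.25 (0.404), and for PFKFB4 in liver -0.95 and -0.52 (0.125).

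Some members passed only with linrodostat, and again none was called between the arms directly. In liver SLC2A1 was 11.3 to 36 CPM in controls, 9.29 to 22.9 with CPB and 19.6, 11.6, 6.05 and 8.56 with linrodostat (-0.48 and then -1.01 against control, adjusted p = 0.0371 for the latter, lost without any 1 of control animals 1, 7, 13 and 15 and linrodostat animals 18, 20 and 24). BNIP3 in liver was 99.1 to 155 CPM in controls, 58.0 to 135 with CPB and 93.6, 71.0, 64.5 and 59.4 with linrodostat, all 4 below every control (-0.82 ± 0.21, adjusted p = 0.00965). EGLN3 fell in heart (-0.62 ± 0.16, adjusted p = 0.045), a call lost in 10 of 12 single omissions, all but those of control animal 15 and linrodostat animal 12 (adjusted p up to 0.17). PGK1 and ENO1 rose in kidney (0.43 and 0.57, adjusted p = 0.0249 and 0.0271), and both calls were lost without linrodostat animal 18 or 20 (up to 0.174 and 0.116). HK2 rose in liver (1.25 ± 0.42, adjusted p = 0.0396), from 0.322 to 1.43 CPM to 1.70, 2.53, 1.88 and 0.836, a call lost without any 1 of control animals 1, 7, 10, 14 and 26 and linrodostat animals 12, 18 and 20.

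Whether the CPB effect differs between organs was tested directly over all 95 libraries. The test called 11 of 39 members (28.2%), beside 12.9% of all genes. PGAM1 had the smallest adjusted p (0.000592), with log2 fold changes of 1.05 in heart and liver, 0.21 in kidney, 0.03 in ileum and -0.07 in lung. P4HA1 followed (adjusted p = 0.00134), with 0.70 in kidney, -1.63 in liver and -0.05, -0.06 and -0.10 in heart, ileum and lung. CA9 (0.00602), SLC2A1 (0.00632), PFKM (0.00884), STC1 (0.0178), ADM (0.0182), PFKP (0.0277), BNIP3L (0.0318), ENO1 (0.033) and LDHA (0.0496) were the others, each with its adjusted p.

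With the animal as a block, which uses that the same 19 animals gave all 5 organs, 11 members were called too. ENO1 dropped out (adjusted p = 0.0536) and ERO1A came in (0.0217). Without heart 6 remained, namely PGAM1, P4HA1, PFKM, ADM, PFKP and BNIP3L, while CA9 (adjusted p = 0.732), STC1 (0.143), SLC2A1 (0.059), ENO1 (0.0763) and LDHA (0.0579) did not pass. PFKFB3, called in kidney and lung, was not called as different between organs.

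The wider pathway was read from 2 further lists. Of 30 other glycolysis and pyruvate genes, 27 had a row. In liver 7 of 27 tested were higher and 3 lower, in kidney 5 and 2 of 26, in heart 1 and 1 of 23, in lung 1 and 0 of 25, and in ileum 0 of 26. For liver, kidney, heart and lung the called shares were 37.0%, 26.9%, 8.70% and 4.00%, beside 26.9%, 21.1%, 11.9% and 4.71% of all genes. Of 37 other HIF pathway genes and targets, 34 had a row. In liver 7 of 34 were higher and 3 lower, in kidney 4 and 4 of 34, in heart 2 and 4 of 33, in lung 3 and 0 of 34, and in ileum 0 of 34. Those shares were 29.4%, 23.5%, 18.2% and 8.82% in the same order, so in liver and kidney the HIF list lay near the background.

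In kidney HKDC1, a further hexokinase, rose from 2.47 to 5.40 CPM in controls to 14.6 to 24.5 in CPB animals, without overlap (2.30 ± 0.19, adjusted p = 5.84e-07). SLC2A2, the carrier GLUT2, rose from 6.57 to 28.8 CPM to 48.5 to 139, also without overlap (1.88 ± 0.30, adjusted p = 0.000338). INSIG2, a brake on sterol synthesis, rose (0.93 ± 0.14), and VLDLR, a lipoprotein receptor, fell (-0.85 ± 0.13).

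In liver CA12, another carbonic anhydrase, rose from 0.141 to 2.07 CPM (median 0.272) to 1.12 to 45.5 (median 6.08), with 6 of 7 above every control (4.4 ± 0.79, adjusted p = 0.000997). TIGAR, a fructose 2,6-bisphosphate phosphatase, rose by 0.90 ± 0.18, and PDP2, which reopens pyruvate entry, by 0.91 ± 0.18.

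In heart SLC16A7, the monocarboxylate carrier MCT2, rose from 51.0 to 71.5 CPM to 77.8 to 122, without overlap (0.68 ± 0.14, adjusted p = 0.00391), and GBE1, the glycogen branching enzyme, rose by 0.55 ± 0.13. VLDLR and PLOD1, a collagen lysine hydroxylase, fell (-0.44 ± 0.11 and -0.42 ± 0.12). In lung CXCR4, a chemokine receptor, rose from 20.4 to 39.6 CPM to 42.9 to 87.3, without overlap (0.90 ± 0.17, adjusted p = 0.00762), and NOS3, the endothelial nitric oxide synthase, by 0.72 ± 0.20. PDHX and INSIG2 rose by 0.33 ± 0.09 and 0.41 ± 0.11.

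LDHB, the subunit of lactate dehydrogenase that dominates in oxidative tissue, was high in largely the same animals across organs, and these came from every arm. This pattern was picked out after its values were seen. In heart, animals 2, 7, 18, 19 and 20 had 178, 150.2, 158, 144 and 223 CPM, and the other 14 had 24.5 to 55.8. In kidney the same 5 had 49.4, 64.1, 66.8, 33.1 and 66.6 CPM against at most 19.2. In liver they had 32.0, 37.2, 18.9, 9.19 and 18.9 against at most 3.78, and in lung 19.3, 15.8, 18.4, 16.6 and 20.9 against at most 4.4. In these 4 organs the 5 animals never overlapped the others. In ileum they had 14.2, 17.8, 10.0, 30.7 and 29.5 CPM, and animal 24, at 11.4, lay above animal 18.

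The 5 animals come from all arms. Animal 7 is among 8 controls, 2 and 19 among 7 CPB animals, and 18 and 20 among 4 given linrodostat. Of 34 members at a median of 1 CPM or more in every organ, LDHB was the only one with 4 animals among the 5 highest in each of the 5 organs, and no other had more than 1. LDHB was also the only member with 0% whole-number counts over the 95 libraries, against 65.3 to 100% for the others, and the only one with 2 entries in RefSeq's table (chr5:51810932-51831218 and chr2:12988754-12990033). Which of these the deposited row counts is not given in the sources used here, and its part in the pattern was not tested. No LDHB contrast of CPB and control passed in any organ (smallest adjusted p 0.496). Nor was LDHB called with linrodostat against CPB or control, in an arm of only 4 animals.

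**Figure D5:**
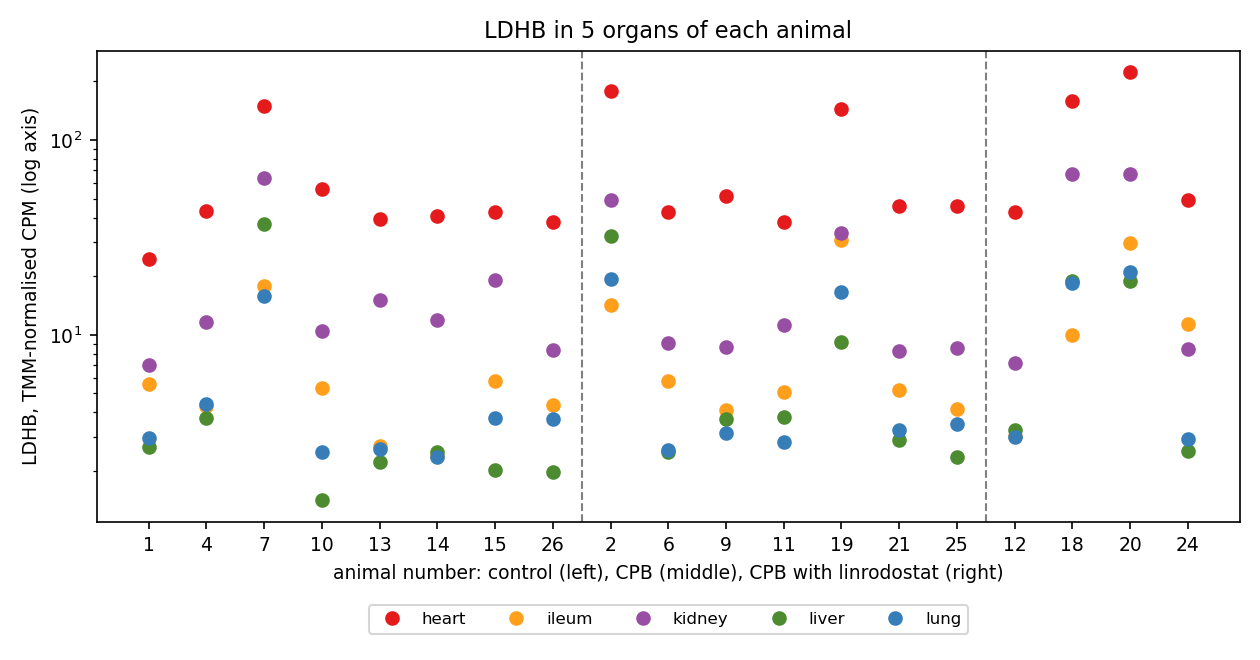
LDHB in TMM-normalised CPM (log axis) in each of 19 animals, ordered by arm, with 1 point per organ. Animals 7, 2, 19, 18 and 20 are high in heart, kidney, liver and lung together, in all 3 arms.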

How the data were processed

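Poly(A) RNA was sequenced from 5 organs of 19 pigs. The authors deposited expected counts, which are estimated per Ensembl gene and need not be whole. The submitters' processing notes name the Sscrofa11.1 assembly and Trim Galore, cutadapt, STAR and Salmon with no versions. Which program made the counts is not given in the sources used here. Values were rounded to whole counts. Members were matched by symbol. Symbols were the table's own, except for 223 rows without one that were named by their gene ID. Positions come from RefSeq's gene table for Sscrofa11.1.

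In R 4.3.3 with edgeR 4.0.16 each organ was fitted apart over its 19 libraries (filterByExpr by group, TMM, robust quasi-likelihood F tests, 2-sided), and p-values were adjusted by Benjamini-Hochberg over all genes tested in the organ. Whether organs differ in the CPB effect was asked by an F test of 4 contrasts over 95 libraries and 20321 genes. Standard errors are the log2 fold change over the root of F. No gene lengths were used, so levels are compared within a gene only. Depth ran from 19956900 to 53627700 counts a library, which limits genes as low as EPO.

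Animal numbers mark the same animal in every organ, per the labels. Deviations from the arm's mean were correlated between organs, for each of the 10 pairs of organs. The medians were 0.0887 to 0.196 within an animal and -0.0128 to -0.00256 between animals.

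The members and lists were chosen with earlier results of these data known. Full values are given, per organ, for up to 6 called members in CPB against control and up to 3 in linrodostat against CPB (the 2 with the smallest p where none was called), for up to 4 called genes of the other lists (1 in liver is not reported here), and for EPO, HIF1A and EPAS1 in every organ. Alternatives were DESeq2 1.42.0, RLE size factors, fits with no filter on low counts, a sex term, fits of only the 2 arms compared, limma-voom (limma 3.58.1) and leaving out each animal. Further ones were added after seeing the data, for CPB against control only. For another tissue's transcripts, the lungs of CPB animals 19 and 25 or the kidneys of control animals 1 and 26 were left out. So were the 2 CPB hearts with the lowest muscle markers or the 2 CPB livers with control-like P4HA1, and MYH11 was a covariate in ileum. Those livers were picked by P4HA1 itself, so for P4HA1 that omission is no check. Linrodostat lungs with UMOD were left out only 1 at a time. The same held for kidneys with heart muscle transcripts. Their sums were 388 CPM in linrodostat animal 12 and 186 (animal 9) and 182 in the highest CPB kidneys, against at most 99.1 in controls. The tests were tried on simulated data. No promoter or protein sequences were used here.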

Additional observations from a re-analysis of the deposited data

Results flagged for a closer look

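Values far from the rest of their group were sought in 96 groups, those of the members given full values by smallest p in an organ. Other printed groups, such as SLC2A1 in ileum or STC1 in heart, were not searched. Chance alone would set apart about 1 in 20 of the groups searched. In heart the values apart were SLC2A1 in CPB animal 2 (79.5 CPM) and LDHA in CPB animal 19 (87.4 CPM). In ileum HK1 of CPB animal 19 stood at 317 CPM, in the library with the lowest epithelial markers. In kidney PFKFB3 of control animal 14 stood at 106 CPM, and in liver PGK1 of control animal 13 at 136 CPM and PGAM1 of CPB animal 2 at 451 CPM. In lung PFKFB3 of CPB animal 2 was at 106 CPM, and linrodostat animal 18 was apart for BNIP3L (93.7 CPM) and PKM (491 CPM).

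The effect of CPB was called as different between organs by the test of the difference itself for PGAM1 (adjusted p = 0.000592), P4HA1 (0.00134), CA9 (0.00602), SLC2A1 (0.00632), PFKM (0.00884), STC1 (0.0178), ADM (0.0182), PFKP (0.0277), BNIP3L (0.0318), ENO1 (0.033) and LDHA (0.0496). Of all genes, 12.9% were called in that test, which took the libraries of the same animal as independent. Without heart, which has its own batch label, CA9, SLC2A1, STC1, ENO1 and LDHA did not pass. With the animal as a block ENO1 did not pass.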

How the results depend on the processing

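Of 33 called gene and organ pairs in CPB against control, 17 were kept under every alternative run and 16 were lost under at least 1, and 0 reversed. Without the low-count filter, which adds genes to the adjustment, called members fell from 8 to 5 in heart and from 5 to 3 in lung in CPB against control, and from 2 to 1 in heart and in lung in linrodostat against control. In CPB against control without that filter, 5.03% of all genes were called in heart and 1.93% in lung. With only the 2 arms compared lung had 3 (3.67% of all genes), and without the lungs of CPB 19 and 25 it had 1 (0.916%). Without the hearts of CPB 19 and 11 heart had 5 (7.04% of all genes). In linrodostat against control, sex as a covariate gave 1 in heart and 1 in lung, DESeq2 4 and limma-voom 0 in heart. Leaving out each animal gave, for CPB against control, heart 4 to 10 members, kidney 6 to 9, liver 9 to 14 and lung 3 to 5, and for linrodostat against control heart 0 to 2, kidney 5 to 11, liver 7 to 12 and lung 0 to 2. In CPB against control these omissions left 8.46% to 16.4% of all genes called in heart and 1.81% to 7.5% in lung. The shares for the other omissions are not reported here. The heart count fell to 5 or 4 without control 1, 7, 10 or 14 or CPB 2, 19 or 25, the lung count to 3 without control 1, 7, 10 or 26 or CPB 2, 19, 21 or 25, and the kidney count with linrodostat to 5 without linrodostat 18 or 20. The heart count with linrodostat was 0 without control 4, 7, 13 or 14 or linrodostat 20 or 24 and 1 without control 1, 10, 15 or 26 or linrodostat 18. The lung count was 0 without control 1 or 26 or linrodostat 12, 20 or 24 and 1 without control 4, 7, 10 or 15 or linrodostat 18. In ileum, and in linrodostat against CPB, the count was 0 throughout. For the difference between organs the animal as a replicate block gave 11 members, leaving out heart 6 and limma-voom 5. The shares of all genes in these fits are not reported here. Removing the filter ended the calls of PGK1 (adjusted p = 0.0536), CA9 (0.11) and STC1 (0.115) in heart, PFKFB4 (0.0509) and SLC16A3 (0.0707) in kidney, P4HA1 (0.055), ALDOC (0.0634), CA9 (0.0992) and BNIP3L (0.0585) in liver, and HK1 (0.0935) and HK2 (0.0682) in lung. Limma-voom ended STC1 in heart (0.179), ALDOC (0.0569) and SLC16A3 (0.0507) in kidney and HK2 in lung (0.0789). The sex term ended STC1 in heart (0.0658), BNIP3L in liver (0.0539) and HK2 in lung (0.0525), RLE ended CA9 in liver (0.0529), and only the 2 arms ended CA9 in liver (0.0652), HK1 (0.0579) and HK2 (0.0671) in lung. Without the livers of CPB 9 and 21, ALDOC (0.0584) and CA9 (0.0707) were lost. Beyond the added genes or missing animals, the cause was not tested. Depth limits EPO.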
